A study of Sus scrofa with 10 samples.

Results

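The genes described here are the leiomodins LMOD1, LMOD2 and LMOD3, the tropomodulins TMOD1 and TMOD4, and SHISA4, a neighbour of LMOD1 on the opposite strand, in the Longissimus lumborum (LL) muscle of Alentejano (AL) and Bísaro (BI) pigs. They were listed by name, and the list was chosen by measured values of LMOD1, its difference between the breeds and its covariation with other genes over the pigs, so values of LMOD1 are given as a description without a test. Of the 6 named genes, 3 were paired with a row of the deposited table of 25880 genes: LMOD1 (ENSSSCG00000031201), LMOD2 (ENSSSCG00000016605) and TMOD4 (ENSSSCG00000006631). All 3 had a mean normalised count of at least 10 over the pigs, the minimum for testing that 3566 genes passed. SHISA4, LMOD3 and TMOD1 were not paired with a row and their expression is not analysed here.

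The study compared 5 AL with 5 BI pigs, both local Portuguese breeds, by stranded mRNA sequencing with 1 library per pig. All were purebred castrated males kept under the same free-range management on commercial diets, with LL muscle taken at slaughter near 150 kg, which the sample labels record as carcass weight and the study's methods as the weight at slaughter. The labels give no age, and no sequencing batch or date. The purpose was to find muscle genes that differ between a fatter breed (AL) and a leaner breed (BI).

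Leiomodins and tropomodulins are related actin-binding proteins that work at the pointed end of actin filaments. Tropomodulins cap that end and stop the filament from growing or shrinking, whereas leiomodins bring actin monomers together and start or lengthen filaments, so both groups set the length of the thin filaments of the sarcomere. LMOD1 is the leiomodin of smooth muscle, LMOD2 that of heart and skeletal muscle, and LMOD3 that of skeletal muscle, where its loss causes nemaline myopathy. TMOD1 is found in striated muscle and red blood cells, and TMOD4 is the tropomodulin of skeletal muscle. SHISA4 is a membrane protein of the Shisa family.

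All positions are those of RefSeq on Sscrofa11.1, while the reads were counted on Ensembl gene models, so gene borders can differ. LMOD1 lies on chromosome 10 from 24165293 to 24194823 on the minus strand, with 3 exons and a protein of 596 amino acids. SHISA4 lies from 24158648 to 24161504 on the plus strand, with 5 exons and 197 amino acids, so that the ends of both genes face each other across 3788 bp. A long non-coding RNA gene, LOC110255662, overlaps LMOD1 on the opposite strand over 8652 bp and was not paired with a row. LMOD2 (chromosome 18, 23803927 to 23815772, minus strand, 3 exons, 550 amino acids) has no neighbour on the other strand closer than 10 kb. TMOD4 (chromosome 4, 98074380 to 98079346, plus strand, 10 exons, 345 amino acids) ends 497 bp from SCNM1, a gene of the opposite strand that codes for a splicing factor. LMOD3 lies on chromosome 13 from 50541407 to 50554346 and TMOD1 on chromosome 1 from 239375150 to 239468387.

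The 300 bases before the start of the 3 genes with values are shown because the families are expressed in different muscle types and the windows differ in composition and in motif matches. They were read 5′ to 3′ on the strand of each gene from chr10:24194824-24195123 (LMOD1, minus strand), chr18:23815773-23816072 (LMOD2, minus strand) and chr4:98074080-98074379 (TMOD4, plus strand) of the RefSeq Sscrofa11.1 genome. Capitals mark matches, on either strand, to the MEF2 site, bound by MEF2 factors of muscle, or to the E-box CANNTG (N for any base), bound by myogenic factors such as MYOD.
LMOD1: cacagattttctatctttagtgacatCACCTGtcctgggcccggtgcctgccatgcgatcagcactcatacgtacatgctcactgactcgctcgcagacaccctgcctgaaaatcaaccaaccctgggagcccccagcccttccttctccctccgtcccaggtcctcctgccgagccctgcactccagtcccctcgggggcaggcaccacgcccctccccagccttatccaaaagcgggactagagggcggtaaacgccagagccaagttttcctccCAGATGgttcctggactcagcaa
LMOD2: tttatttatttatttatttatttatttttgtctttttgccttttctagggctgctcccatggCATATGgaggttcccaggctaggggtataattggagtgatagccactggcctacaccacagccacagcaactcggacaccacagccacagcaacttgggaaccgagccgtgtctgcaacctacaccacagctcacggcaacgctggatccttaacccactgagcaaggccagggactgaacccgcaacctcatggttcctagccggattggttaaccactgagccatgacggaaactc
TMOD4: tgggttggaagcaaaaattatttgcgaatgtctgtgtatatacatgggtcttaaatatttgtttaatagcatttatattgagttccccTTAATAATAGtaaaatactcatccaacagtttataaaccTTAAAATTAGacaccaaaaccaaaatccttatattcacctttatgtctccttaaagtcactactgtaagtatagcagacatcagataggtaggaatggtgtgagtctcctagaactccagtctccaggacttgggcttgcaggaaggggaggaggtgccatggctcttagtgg

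The window of TMOD4 held 2 matches to the MEF2 site, TTAATAATAG from 212 to 203 bases before the start and TTAAAATTAG from 173 to 164 bases before it, and no E-box. LMOD1 had E-boxes at 274 to 269 bases (CACCTG) and at 23 to 18 bases (CAGATG) before its start, and LMOD2 had one at 238 to 233 bases (CATATG). Among the 19556 genes with such a window, 3.165% held a MEF2 site and 68.95% an E-box, so an E-box sets no window apart. The CArG box, bound by serum response factor and present in 1.595% of the windows, was matched in none of the 6 named genes. GC content was 60% for LMOD1, 50.3% for LMOD2 and 37.7% for TMOD4, against a median of 56.67%. A match describes letters only, and the reads bear on no binding.

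Between 2298045 and 3343194 reads were counted on genes per pig, and every value was a whole multiple of the worth of 1 read. The paper reports far more sequenced reads per sample, nearly all of them aligned, so most reads were not counted on a gene. The reason was not tested, and the levels given here rest on the counted part. LMOD1 rested on 139 to 352 reads per pig, LMOD2 on 87 to 168 and TMOD4 on 424 to 792. Of the 11 skeletal muscle fibre markers, 5 were paired and all were abundant: ACTA1, the skeletal actin, CKM, DES, TNNT1 and TNNT3, with sums of 15249 to 31537 normalised counts in AL and 27382 to 44030 in BI, ranges that overlapped. The defining endothelial markers PECAM1, CDH5, KDR and TEK together had 3.24 to 16.7 in AL and 2.20 to 9.88 in BI, whereas EGFL7 alone had a mean of 2100. How the reads were assigned to strands during counting is not given in the sources used here, and reads of a gene and of its partner on the opposite strand cannot be told apart.

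LMOD1, the smooth muscle leiomodin, had the higher values in BI. The normalised count (reads divided by the size factor of the pig) was 132 in AL44, 129 in AL46, 259 in AL49, 181 in AL52 and 187 in AL63. In BI it was 252.05 in BI25, 322 in BI34, 303 in BI36, 309 in BI37 and 278 in BI42. Thus 4 of 5 BI pigs lay above every AL pig, and only AL49, the highest of its breed, passed BI25, the lowest of the other. Such a pattern, with 4 or more BI pigs above every AL pig, was found in 3.17% of the tested genes. The AL mean was 177 ± 52.7 (SD, n = 5), and the BI mean of 293 ± 27.8 (SD, n = 5) was 1.65 times as high. On the scale of log2(normalised count + 1) the difference of AL over BI was −0.76 with a standard error of 0.19, and it was −0.91 without AL49. Because the breed difference of LMOD1 led to its choice, these values carry no test.

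LMOD2, the leiomodin of heart and skeletal muscle, did not show such a separation. Its normalised count was 82.1 in AL44, 128 in AL46, 146 in AL49, 84.5 in AL52 and 190 in AL63. The BI pigs had 88.1 in BI25, 105 in BI34, 119 in BI36, 113 in BI37 and 99.3 in BI42. All BI values lay inside the range of the AL pigs, which held both the lowest and the highest count. The AL mean was 126 ± 45.1 (SD, n = 5) and the BI mean 105 ± 12.04 (SD, n = 5), and the log2 difference was 0.20 with a standard error of 0.23 (limma, adjusted p = 0.868). The 95% interval of this difference ran from −0.29 to 0.69.

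TMOD4, the skeletal muscle tropomodulin, had higher means in AL without passing the adjusted threshold. Its normalised count was 493 in AL44, 736 in AL46, 503 in AL49, 574 in AL52 and 847 in AL63. In BI it was 391 in BI25, 467 in BI34, 483 in BI36, 501 in BI37 and 487 in BI42. The AL pigs AL46, AL49, AL52 and AL63 exceeded all BI pigs, AL49 by a narrow margin over BI37, and AL44 fell inside the BI range. Of the tested genes 4.21% had 4 or more AL pigs above every BI pig. The AL mean was 631 ± 155 (SD, n = 5) and the BI mean 466 ± 43.4 (SD, n = 5), with a log2 difference of 0.41, a standard error of 0.17 and a 95% interval from 0.05 to 0.77 (limma, unadjusted p = 0.0293, adjusted p = 0.493). The log2 difference was 0.29 without AL63, the pig with the highest count.

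**Figure D1:**
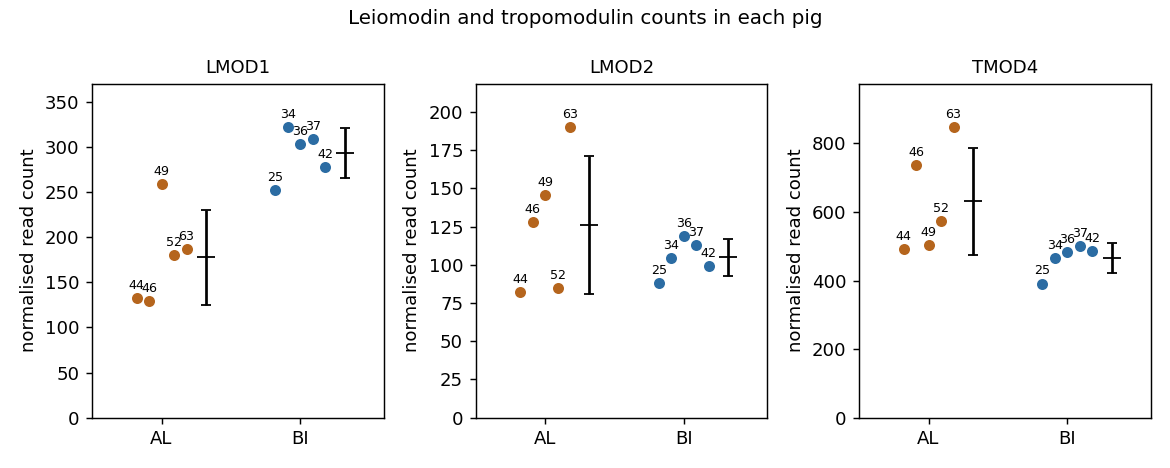
Normalised read counts of LMOD1, LMOD2 and TMOD4 (vertical axes, starting at 0) in each of the 5 AL and 5 BI pigs, 1 labelled point per pig, with the breed mean and its SD as bar and error bar. For LMOD1 the BI pigs lie between 252.05 and 322 with only AL49 reaching into that range, whereas the AL pigs spread over the whole BI range for LMOD2 and lie mostly above it for TMOD4.

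Across the table, limma at an adjusted p under 0.05 called 0% of the 3566 genes higher in AL and 0.028% (1 gene, INTS11, a subunit of the Integrator complex) higher in BI, with an adjusted p of 0.00827. At an unadjusted p under 0.05 it called 305 genes (8.55%), with 4.63% of the genes higher in AL and 3.93% higher in BI. Groups without any overlap were found for 1.01% of the genes with AL higher and for 0.701% with BI higher, and none of the 3 members was among them. On the recovered reads, edgeR and limma-voom called 1 gene each and DESeq2 called 48. Neither LMOD2 nor TMOD4 was called by any of these tools, and TMOD4 was the 1 of them with an unadjusted p under 0.05. The median log2 difference over all tested genes was −0.02, and 47.0% of them were above 0.

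The 3 genes varied more among AL than among BI pigs. The coefficient of variation was 29.7% in AL and 9.48% in BI for LMOD1, 35.8% and 11.5% for LMOD2, and 24.6% and 9.32% for TMOD4. A larger SD in AL than in BI on the log2 scale was also the more frequent order among all tested genes, at 62.8%, where the median SD was 0.44 in AL and 0.36 in BI. SCNM1 had the opposite order, with 6.50% in AL and 7.33% in BI.

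Per kb of exon, the order of the levels was TMOD4, LMOD1 and LMOD2, with no overlap between these genes over the 10 pigs. TMOD4 had 278 to 603 normalised counts per kb, LMOD1 had 35.3 to 87.9 and LMOD2 had 14.8 to 34.3. In rank by the mean per kb among 13701 genes with a length, TMOD4 came at 181, LMOD1 at 611 and LMOD2 at 1108. By this measure the smooth muscle leiomodin was listed above LMOD2 in a skeletal muscle. The lengths are those of RefSeq exons, while the reads were counted on Ensembl gene models. Before division by length, LMOD1 and LMOD2 were close in AL46 (129 and 128) and in the reverse order in AL63 (187 and 190). LMOD3 has no value to compare. Reads of LOC110255662, which overlaps LMOD1 on the opposite strand, cannot be told apart from those of LMOD1. Of the remaining tropomodulins, TMOD2, known from neurons, had no read in any pig, which at 3 reads allows up to 2.47 to 3.39 normalised counts per library, and the widely expressed TMOD3 had 11 reads over all pigs. LYSMD2, which lies 44 bp from TMOD2 on the opposite strand, had a mean of 2.99.

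The level of LMOD1 did not come with equal levels of smooth muscle markers. Of 13 markers of smooth muscle cells and pericytes, all were paired, 9 had a mean under 10 normalised counts and ACTG2, the enteric smooth muscle actin, had no read in any pig. Per kb, LMOD1 had a mean of 64.3, whereas SYNPO2, an actin-binding protein of muscle, had 9.32, CNN1 (calponin) 4.89, ACTA2 (smooth muscle actin) 3.21, MYL9 (its myosin light chain) 2.70 and MYH11 (smooth muscle myosin) 1.72. The summed normalised count of the 13 markers was 131 to 211 in AL and 116 to 173 in BI, so that the breeds overlapped. Over the 10 pigs this sum and LMOD1 had r = −0.12 and rho = −0.22. SYNPO2 and MCAM, a pericyte and endothelial adhesion molecule, made up 62.3% of the sum. Without them the other 11 markers summed to 46.3 to 82.7 in AL and 45.7 to 58.1 in BI, with r = −0.47 and rho = −0.49 against LMOD1. Of the 4 markers tested, 0 passed an adjusted p under 0.05 in limma (0.028% of all tested genes) and 0 an unadjusted p under 0.05 (8.55% of all), with MYH11 at a log2 difference of 0.52 (adjusted p = 0.699) and MCAM at 0.28 (adjusted p = 0.818). Their part in the LMOD1 values was not tested beyond these numbers. In bulk muscle, fewer cells of a type and less RNA per cell cannot be told apart.

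**Figure D2:**
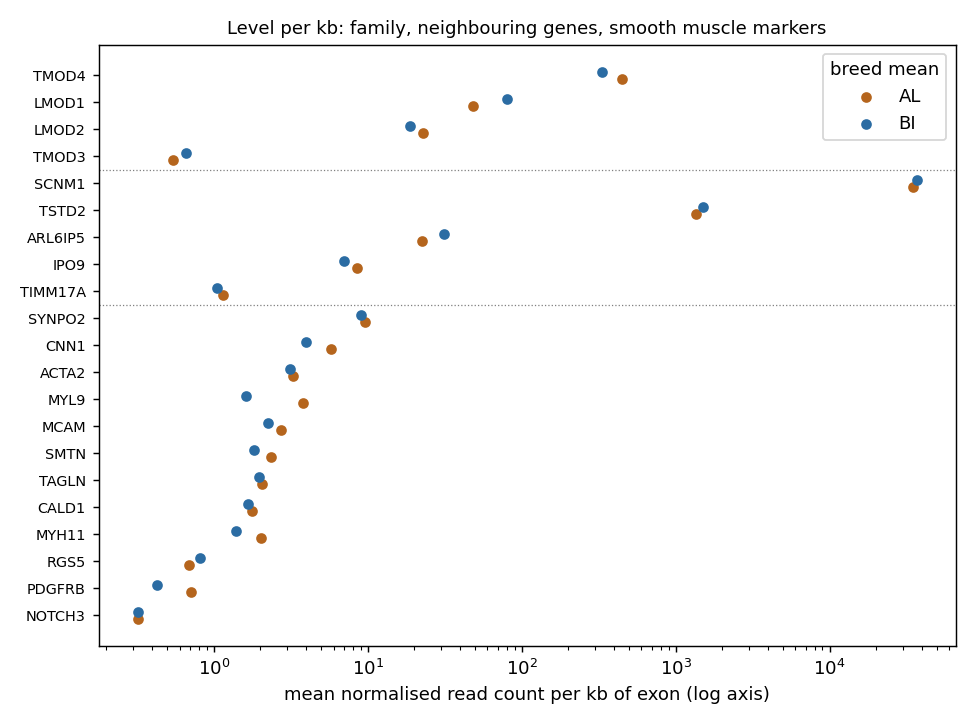
Mean normalised read count per kb of exon (horizontal log axis) in AL and BI, 1 point per breed, for the leiomodins and tropomodulins with reads (top), genes beside the named genes (middle) and smooth muscle and pericyte markers with reads (bottom). LMOD1 lies above every smooth muscle marker drawn, and SCNM1, the neighbour of TMOD4, has the highest value with a mean of 35714.

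Neighbours on the opposite strand had levels of very different size. SCNM1, beside TMOD4, had a mean of 32392 normalised counts (29551 to 37056), or 35714 per kb, the rank of 6 among the 13701 genes with a length, whereas ACTA1 had 6622 per kb and TMOD4 390. Its log2 difference between the breeds was −0.08 with a standard error of 0.12 (limma, adjusted p = 0.898). TSTD2, which overlaps TMOD1 on the opposite strand over 1797 bp, had a mean of 7244 (5488 to 9330) and a log2 difference of −0.13 with a standard error of 0.16 (adjusted p = 0.879). These are the values counted next to the skeletal muscle tropomodulin and the unpaired TMOD1, and whether their reads belong to the neighbour was not tested.

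Beside LMOD1 and SHISA4 lie TIMM17A and IPO9. TIMM17A, a subunit of a mitochondrial import channel 5521 bp from LMOD1 on the opposite strand, had a mean of 1.03 normalised counts (0 to 2.26). IPO9, an importin that carries actin into the nucleus, lies 8353 bp from SHISA4 on the same strand, with a mean of 43.6 and a log2 difference of 0.23 with a standard error of 0.27 (limma, adjusted p = 0.878). IPO9 and LMOD1 had r = −0.27 and rho = −0.36 over the 10 pigs. ARL6IP5, 3402 bp from LMOD3 on the opposite strand, had a mean of 36.5 and ranged from 16.2 to 116 (log2 difference −0.21, standard error 0.45, adjusted p = 0.932).

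Ratios within a pig do not depend on the scaling between libraries. LMOD1 over LMOD2 was 1.61 in AL44, 1.01 in AL46, 1.78 in AL49, 2.14 in AL52 and 0.98 in AL63, against 2.86 in BI25, 3.07 in BI34, 2.55 in BI36, 2.73 in BI37 and 2.80 in BI42. The breeds did not overlap, and the log2 difference was −0.96 with a standard error of 0.23. Of the other 3565 tested genes, 0.337% had a ratio to LMOD2 that was higher in every BI pig than in every AL pig. LMOD1 over TMOD4 ran from 0.176 to 0.515 in AL and from 0.570 to 0.689 in BI, again without overlap, at a log2 difference of −1.17 with a standard error of 0.27, but 4.6% of genes had this order against TMOD4. As LMOD1 is part of both ratios they carry no test.

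The ratio of LMOD2 to TMOD4, also added after the values were seen, holds no LMOD1. It was 0.147 to 0.290 in AL and 0.204 to 0.246 in BI, so that the BI range lay inside that of AL. The log2 difference was −0.21 with a standard error of 0.18 (exact two-sided permutation test over all divisions of the pigs into 5 and 5, p = 0.238, q = 0.238 adjusted together with TMOD4 over SCNM1). The difference was −0.35 without AL49, the AL pig with the highest ratio, with an exact permutation q of 0.0159. With any other pig left out the exact permutation q lay between 0.214 and 0.492. The low q thus rested on leaving out AL49 and is a description only. TMOD4 over its neighbour SCNM1, a ratio chosen after the values were seen, was 0.0167 in AL44, 0.0212 in AL46, 0.0169 in AL49, 0.0182 in AL52 and 0.0267 in AL63. In BI it was 0.0123 in BI25, 0.0135 in BI34, 0.0130 in BI36, 0.0161 in BI37 and 0.0151 in BI42. Every AL pig lay above every BI pig, with a log2 difference of 0.49 and a standard error of 0.15. This ratio is a description only, since the higher TMOD4 values of AL and the narrow range of SCNM1 were known when it was chosen. Its own permutation p entered only the joint adjustment above and is not read as a result. Of the other 3565 genes, 1.32% had a ratio to SCNM1 that was higher in every AL pig.

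**Figure D3:**
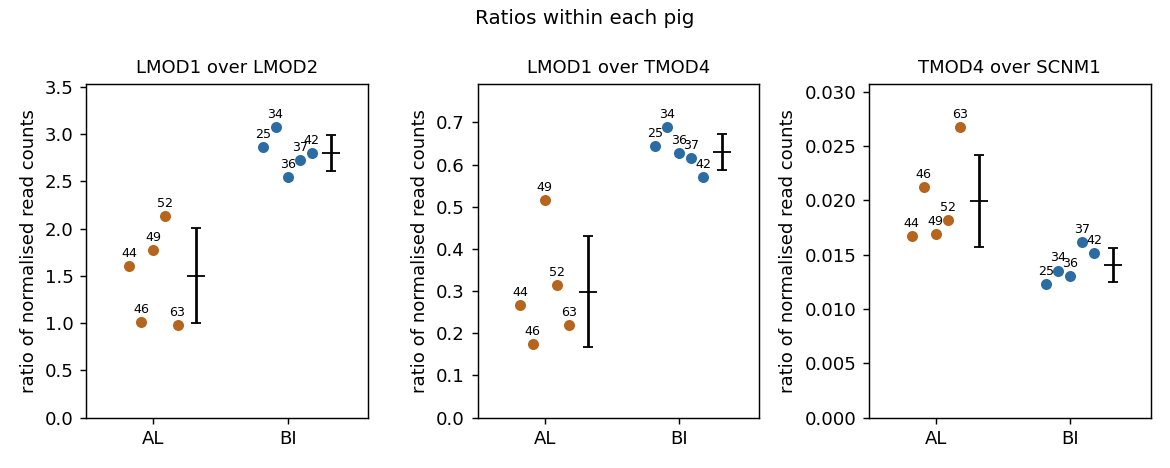
Ratios of normalised read counts within each pig (vertical axes, starting at 0) for LMOD1 over LMOD2, LMOD1 over TMOD4 and TMOD4 over SCNM1, 1 labelled point per pig, with the breed mean and its SD as bar and error bar. In each ratio the breeds do not overlap, with LMOD1 over LMOD2 at 2.55 to 3.07 in BI and at 0.98 to 2.14 in AL.

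Among the pairs of LMOD1, LMOD2 and TMOD4, the r over the 10 pigs on the log2 scale was highest for LMOD2 and TMOD4. LMOD2 and TMOD4 had r = 0.67 (permutation p = 0.0340, q = 0.0680 over 2 pairs) and rho = 0.48 (permutation p = 0.166, q = 0.332), so neither passed after adjustment. The r was 0.46 without AL49 and AL63, the pigs farthest from the median of LMOD2, and 0.68 after the breed means were subtracted. Of 3565 genes, 82 had a higher r with LMOD2 than TMOD4 had. LMOD1 and LMOD2 had r = 0.041 and rho = 0.13, with −0.18 without AL44 and AL46 and 0.47 with breed means subtracted. LMOD1 and TMOD4 had r = −0.56 and rho = −0.56, with −0.67 without the same pigs and −0.076 with breed means subtracted. Thus the negative value rested on the breed means. TMOD4 and SCNM1 had r = 0.06 (permutation p = 0.866, q = 0.866) and rho = −0.27 (permutation p = 0.452, q = 0.452). This pair, the other in the adjustment, was added after the values were seen, so each q depends on that choice.

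**Figure D4:**
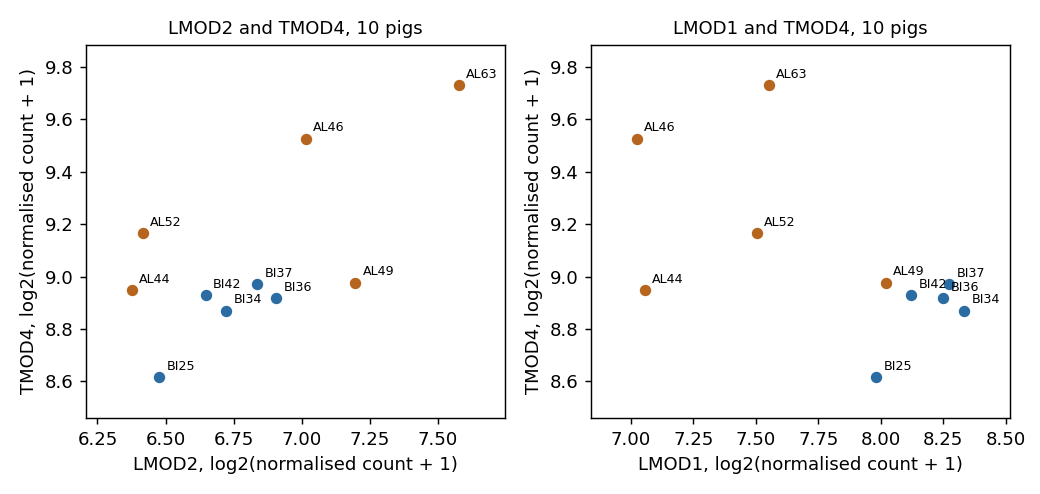
TMOD4 against LMOD2 and TMOD4 against LMOD1 in the 10 pigs, both axes as log2(normalised count + 1), 1 labelled point per pig coloured by breed. In the panel of TMOD4 and LMOD2 (r = 0.67) AL63 is highest in both genes, and against LMOD1 the BI pigs sit to the right of most AL pigs (r = −0.56).

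The first principal component of the tested genes took 34.4% of the variance, with AL44 at one end and AL63 at the other. The r with it was 0.78 for TMOD4, 0.66 for LMOD2, −0.22 for LMOD1 and 0.17 for SCNM1. AL44 also had the fewest reads and, in each of the 3 genes, the lowest or next to lowest value of its breed. LMOD1 had r = 0.63 with the share of reads taken by the 10 highest genes in a pig, against 0.19 for LMOD2 and −0.12 for TMOD4. The part of these features in the breed differences was not tested.

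The 5 genes most like LMOD1 by r over the 10 pigs were CAMTA2, PITHD1, FSD2, SLC16A3 and F10. CAMTA2, a calmodulin-binding transcription activator, had r = 0.91 and rho = 0.84, with 0.81 after subtracting breed means, with AL at 93.1 ± 21.7 normalised counts (SD, n = 5) and BI at 132 ± 16.3 (SD, n = 5). On the opposite strand it lies 5910 bp from ENO3, the muscle enolase (mean 2413), and 7328 bp from KIF1C (mean 141). PITHD1 and FSD2 had r = 0.84 each at means of 12.05 and 12.01, close to the minimum for testing. SLC16A3, the lactate transporter of glycolytic fibres, had r = 0.84 at a mean of 18.3, and F10, coagulation factor X, had r = 0.83 at 181. SLC16A3 lies 2386 bp from CSNK1D, a casein kinase with a mean of 1036, on the opposite strand. With breed means subtracted the r was 0.70 for PITHD1, 0.71 for FSD2, 0.56 for SLC16A3 and 0.70 for F10. All 5 had lower AL than BI means, as LMOD1 did, with log2 differences from −0.89 to −0.36. They were picked for likeness to LMOD1 over the same pigs, so a shared direction was built into the choice. Of all tested genes, 47.0% had a log2 difference above 0. With LMOD1, 14 of 3565 genes had r above 0.8, and 5% of the genes had r above 0.57. None of the 5 is a leiomodin, a tropomodulin or a member of the gene lists used here.

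For LMOD2 and TMOD4 the same search was added after the values were seen. The genes most like LMOD2 were CLIC3 (r = 0.88), METTL25B (0.87), CIAO1 (0.84), DYNC1H1, the heavy chain of cytoplasmic dynein (0.84), and SMTNL2, a smoothelin-like protein (0.83). TMOD4 was followed by NENF (0.93), ENSSSCG00000028802 (0.91), MICAL1, an enzyme that oxidises actin and takes filaments apart (0.91), LINGO1 (0.90) and NFE2L1, a transcription factor of proteasome genes (0.89). NENF ranged from 8.24 to 48.3 normalised counts, and its rho with TMOD4 was only 0.65. The lists for LMOD1, LMOD2 and TMOD4 share no gene.

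The other genes of the thin filament had log2 differences between the breeds of either sign. Of 18 listed genes (actins, tropomyosins, capping proteins, nebulin and its partners), 16 were paired and 11 tested, of which limma called 0 in either direction and 2 had an unadjusted p under 0.05, where 0.028% and 8.55% of all tested genes did, so 0 calls does not set the list apart. XIRP1, which binds and stabilises actin filaments, had a log2 difference of 1.18 with a standard error of 0.39 (adjusted p = 0.331). Its normalised count was 320 in AL46, 62.3 to 112 in the other AL pigs and 28.6 to 82.8 in BI. TRIM63, a muscle ubiquitin ligase, had 0.68 with a standard error of 0.31 (adjusted p = 0.561). The median log2 difference of the 11 genes was −0.06, against −0.02 over all tested genes.

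Actin and serum response factor signalling senses free actin monomers. Of its 15 listed genes, 13 were paired and 8 tested, with 0 called by limma (0.028% of all tested genes) and 0 at an unadjusted p under 0.05 (8.55% of all). The smallest p-values belonged to EGR1, an immediate early gene (log2 difference 0.87, standard error 0.53, adjusted p = 0.702), and MRTFA, the actin-sensing coactivator (−0.54, standard error 0.33, adjusted p = 0.702). MYOCD, the smooth muscle coactivator, had no read in any pig. The median log2 difference of the 8 genes was 0.24, against −0.02 over all tested genes. Among the 5 skeletal fibre markers, limma called 0 (0.028% of all tested genes) and 2 had an unadjusted p under 0.05 (8.55% of all), TNNT1, the slow troponin T (log2 difference 0.73, adjusted p = 0.273), and TNNT3, the fast one (−0.47, adjusted p = 0.346), while EGFL7, the only endothelial marker tested, had 0.06 (adjusted p = 0.953).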

How the data were processed

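Messenger RNA of LL muscle was sequenced in 5 AL and 5 BI pigs (a single library each), which the animal names in the labels assign to breeds. After trimming with Trim Galore 0.5.0, the authors used HISAT2 2.1.0 for alignment to Sscrofa11.1 and HTSeq 0.11.1 to count reads on the genes of Ensembl release 94. The strand setting is not given in the sources used here. The signal values deposited by the authors are these counts after division by a size factor per pig from DESeq2. The log2 fold changes, p-values and scores (standard errors and Wald statistics) that the authors deposited belong to their own comparison and were not used.

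Values divided by the smallest value above 0 in each pig gave whole reads for 100% of values (within 0.01 reads). Within each breed, all pairs of libraries differed by more than sampling noise.

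The breeds were compared with limma 3.58.1 (R 4.3.3) on log2(value + 1), with intensity trend and no covariate, for genes with a mean of at least 10. Benjamini-Hochberg adjustment covered all 3566 genes. Ratios used exact permutation tests and correlations 100000 permutations. Alternatives were pseudocounts of 0.1 and 10, other minimums, DESeq2 1.42.0, edgeR 4.0.16 (also with TMM), limma-voom, scaling without the 10 highest genes, and each pig left out. The fits were tested on simulated data. Tables were made with pandas 2.3.3, scipy 1.17.1 and numpy 2.4.6 in Python 3.11.15, and figures with matplotlib 3.10.9.

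Members, gene lists and tests were chosen with earlier results of these data known. Named are the members, TMOD2, TMOD3, genes within 10 kb on the opposite strand, the 5 genes most like LMOD1 and, of each list, the genes called or else the 2 with the smallest p. Level comparisons name further markers, and SHISA4's neighbour IPO9, chosen after their values were seen. As LMOD3, TMOD1 and SHISA4 were not paired, 5 of the 6 pairs intended for a test (those among LMOD2, LMOD3, TMOD1 and TMOD4), both intended ratios and the genes most like SHISA4 could not be computed. The ratios reported, the pair TMOD4 and SCNM1 and the genes most like LMOD2 and TMOD4 were added after seeing the data.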

Additional observations from a re-analysis of the deposited data

How the results depend on the processing

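The number of genes called between the breeds depended on the setting and on single pigs. It was 1 in the reported fit, 0 with a minimum mean of 50 for both breeds (1513 genes), 40 without a minimum (14681 genes), 2 with a pseudocount of 10 and 48 with DESeq2 (31 higher in AL, 17 in BI). With 1 pig left out it ran from 1 to 40, with 40 without AL44, 4 without AL52, 3 without BI36 and 4 without BI37. The cause was not tested.

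The log2 difference of LMOD1 ran from −0.91 to −0.66 over the 20 alternatives. These draw on the same pigs in which LMOD1 was chosen, so the range is a description only. That of LMOD2 ran from 0.03 (without AL63) to 0.33 (without AL44), with adjusted p from 0.511 to 0.998, and that of TMOD4 from 0.29 to 0.49, with adjusted p from 0.188 to 0.817. None of these alternatives called LMOD2 or TMOD4.

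The r of LMOD1 and LMOD2 was 0.47 with breed means subtracted and ran from −0.23 to 0.25 with 1 pig left out. For LMOD1 and TMOD4 it was −0.076 with breed means subtracted and ran from −0.75 to −0.40 with 1 pig left out. For LMOD2 and TMOD4 it ran from 0.35 to 0.78 with 1 pig left out. The permutation q was 0.0379 without AL49 (r = 0.76) and 0.0339 without AL52 (r = 0.78), but 0.640 without AL63 (r = 0.35). With any other pig left out the permutation q lay between 0.0748 and 0.148. The ratio of LMOD2 to TMOD4 ran from −0.35 to −0.11 (log2 difference) with 1 pig left out. The ratio of TMOD4 to SCNM1 ran from 0.38 to 0.55 over its 12 alternatives.

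No paired analysis was made, since the labels used here link no AL pig to a BI pig. TMOD2 had 0 reads and TMOD3 0 to 2 reads per pig, so no breed difference was detectable for them at this depth. SHISA4, LMOD3 and TMOD1 have no value here.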
